A study of Mus musculus with 8 samples.

Results

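Cell cycle transcripts of T cells from the pancreas of diabetic mice are described here, in the setting of a drug pair that includes an inhibitor of the kinase WEE1. The set holds 45 genes, given by name, of 32285 features in the deposited matrices. It splits into 14 genes of S phase, in which DNA is copied, 24 genes of G2 and mitosis (G2/M), and 7 genes of the switch through which WEE1 and the CDC25 phosphatases control entry into mitosis. All 45 had at least 1 UMI (a unique molecular identifier, which marks 1 captured transcript) in T cells.

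The kinases WEE1 and PKMYT1 place inhibitory phosphates on the cyclin-dependent kinase CDK1, and WEE1 acts on CDK2 as well. CDC25 phosphatases remove these phosphates, and the kinase PLK1 helps to tip the balance when a cell is ready to divide. Blocking WEE1 is known to push cells into mitosis before DNA copying is complete. Much of this control acts on proteins, which transcript counts do not measure.

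Pancreatic T cells, sorted as CD45+ CD3+ TCRβ+ from mice of the NOD strain, which develops autoimmune diabetes spontaneously, were measured in 8 droplet 3′ RNA-seq libraries. One library was of active diabetes, with blood glucose over 600 mg/dl, and another of onset, at 250 mg/dl. The other 6 were 3 libraries of vehicle (30% ethanol, 5% Tween 20 and 65% PEG300) and 3 of PPCA, which is nutlin-3 at 50 mg/kg, an MDM2 inhibitor, with MK-1775 at 25 mg/kg, the WEE1 inhibitor. These were named for days 2, 3 and 4 and came from new-onset mice at 200 to 300 mg/dl, treated daily and harvested the day after the last dose. All mice are labelled as spontaneously diabetic female NOD mice of 3 to 4 months, while the treatment protocol gives 3 to 5 months for the treated mice. The number of mice per library is not stated, so the p-values below measure the spread between libraries, which may be technical in part. For subsets compared within libraries, this is the spread of the within-library differences. For treatment, it also takes in any change of the effect between days 2, 3 and 4.

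The T cell gate (at least 2 UMIs over 6 T cell receptor and CD3 genes) kept 70623 cells, 6184 to 11559 per library, with 33556480 to 57517341 UMIs in all. On days 2, 3 and 4 the median T cell had 5135, 5443.5 and 4952 UMIs with vehicle, against 4146, 4624.5 and 3854 with PPCA. CD4-gated cells (a Cd4 UMI and none of Cd8a or Cd8b1) numbered 27505, CD8-gated cells (the reverse) 22274, and 2583 T cells had a Foxp3 UMI. Against the female label, 4 libraries carried Y-linked transcripts and almost no Xist: vehicle of days 2 and 3, and PPCA of days 3 and 4. The treatment pairs of days 2 and 4 therefore differ in this respect as well as in treatment, and results are given below with the Y-linked status in the fit. Of the fixed marker lists, the 6 T cell genes summed to 5358 to 7242 CPM (counts per 1000000 of the summed UMIs). B and plasma cell markers summed to 6.97 to 15.2 CPM, myeloid markers to 119.8 to 149 CPM, erythroid markers to 0.125 to 70.7 CPM, and the 5 thymocyte markers, 2 of them at 0 in each library, to 21.7 to 31.0 CPM. Pancreas markers summed to 40.6, 72.3 and 51.6 CPM with vehicle on days 2, 3 and 4, against 70.8, 103 and 61.2 CPM with PPCA, and their part in the treatment results was not tested. Any pair of libraries shared 7 to 31 cell barcodes, at most 0.372% of the smaller library.

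The members divided first by which cells carried them. A G2/M cell is defined here as a T cell with UMIs of at least 3 of 20 core members: 18 of the G2/M genes (all but Cks1b, Cks2, Smc2, Smc4, Hmgb2 and Stmn1) and, from the switch, Cdk1 and Plk1. For the share of a gene's UMIs, the gene itself was left out of the count. The class rests on these transcripts alone and is not a measure of division. Such cells were 138 of 70623 T cells, or 0.195%, and had a median of 10210 UMIs against 4819 for all T cells. Birc5 (ENSMUSG00000017716), which encodes the mitotic and anti-apoptotic protein survivin, had 73.4% of its 395 UMIs in G2/M cells. The mitotic cyclin gene Ccnb2 (ENSMUSG00000032218) had 68.4% of its 247 UMIs there, and the spindle checkpoint genes Bub1 and Bub1b 72.4% and 59.6% of 29 and 47 UMIs. All UMIs together were found in G2/M cells at 0.299% to 0.436%, depending on the gene left out. These few transcripts therefore sat in very few cells: Birc5 was seen in 141 cells, and 1 cell held 28 of its UMIs. Most of those 141 cells lay outside the class, as Birc5 was detected in 28.6% of the 133 G2/M cells counted without it.

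Other members were spread over cells outside this class. Smc4, a condensin subunit, had 0.695% of its 90462 UMIs in G2/M cells and was detected in 50.5% of T cells. Pcna, the sliding clamp of DNA polymerases, had 1.35% of its 29321 UMIs there, and the cytokinesis regulator Racgap1 1.41% of 6252. The median share was 18.6% over the 24 G2/M genes, 2.38% over the 14 S phase genes and 2.08% over the 7 switch genes. The roles did not separate cleanly. Of the S phase genes Pclaf, a PCNA partner, had 38.9% of its UMIs in G2/M cells, while 6 G2/M genes were under 5%. Among the switch genes Wee1 itself stood at 2.08%, Cdc25a at 0.792%, Cdc25b at 1.26%, Plk1 at 8.45% and Cdk1 at 10.3%.

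**Figure D1:**
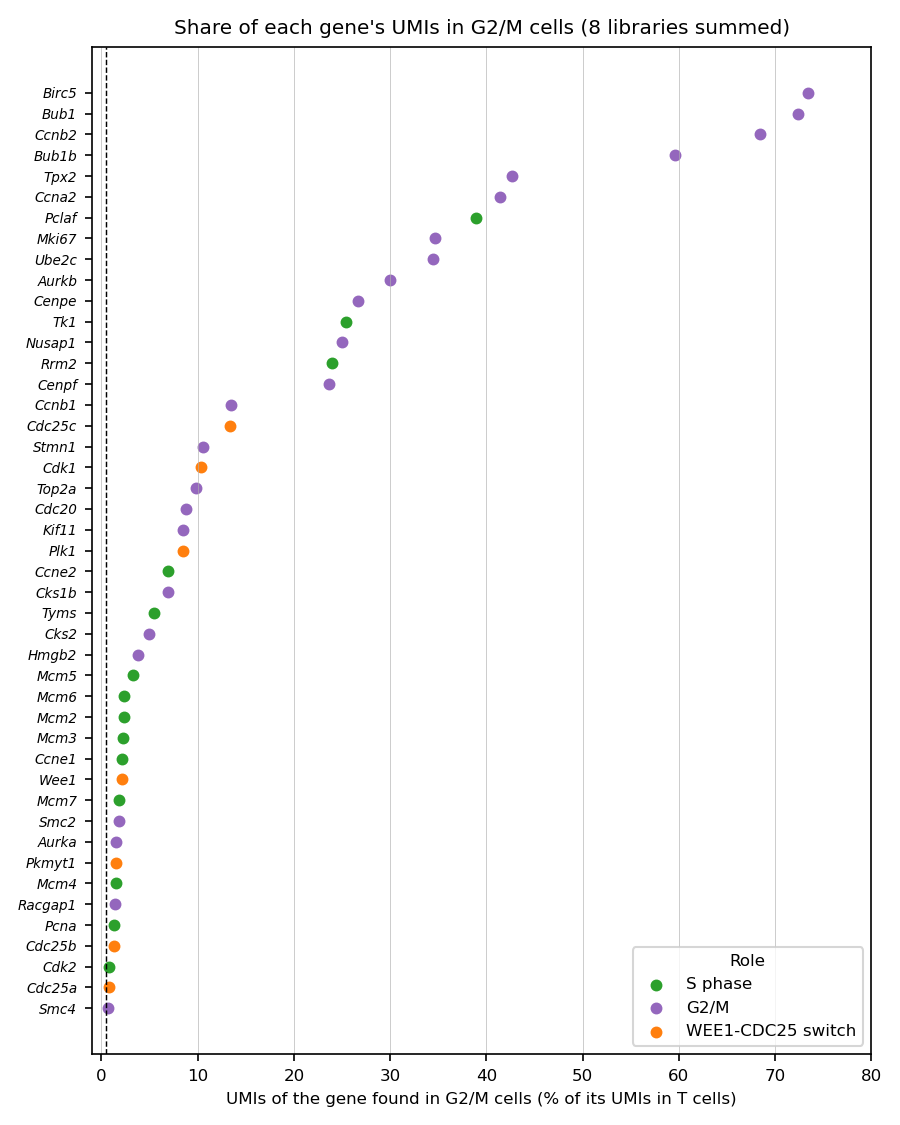
Share of each member's UMIs (x axis, percent of its UMIs in T cells, 8 libraries summed) found in cells with at least 3 other core G2/M members, coloured by role. The dashed line is the highest such share of all UMIs, 0.436%. Birc5 leads at 73.4% and Smc4 is lowest at 0.695%.

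Promoters are shown for genes from both ends of this range, since cell cycle genes expressed late in the cycle commonly carry CHR and CCAAT elements and those of S phase E2F elements. RefSeq promoters of build GRCm38.p6, from 250 bases before to 50 after the start, matched 35 of the 45 members, with 36 promoters, as 1 S phase gene has 2. Both strands were searched for 3 kinds of element. The CHR was sought as TTTGAA, with its known variant spelled TTCGAA. The second element was CCAAT. E2F elements were sought as TTCCCGC, with their known variant spelled TTGGCGC. The reverse strand of CCAAT can overlap the start of this variant. CHR letters were in 19.2% of all 32851 promoters and in 14 of 19 promoters of G2/M members, against 2 of 13 of S phase members and 3 of 4 of switch members. CCAAT was in 37.4% of all promoters, in 17 of the 19 G2/M and 10 of the 13 S phase promoters. E2F letters were in 6.81% of all promoters, in 7 of the 13 S phase and 2 of the 19 G2/M promoters. A match is a description of these letters only.

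Below, 280 bases of each promoter (250 before to 30 after the start) are given 5′ to 3′ on the gene's strand, with matches to any of the motifs in capitals. Ccnb2 (chr9:70421525-70421804, minus strand) and Birc5 (chr11:117848987-117849266, plus strand) stand for the genes carried by G2/M cells, and Racgap1 (chr15:99651627-99651906, minus strand) for the widest difference between CD8-gated and CD4-gated cells. Hmgb2 (chr8:57511593-57511872, plus strand), Pcna (chr2:132253151-132253430, minus strand) and Cdc25a (chr9:109875329-109875608, plus strand) had the highest mean CPM of their roles among members with a promoter in the table, which has none for Smc4.
Ccnb2: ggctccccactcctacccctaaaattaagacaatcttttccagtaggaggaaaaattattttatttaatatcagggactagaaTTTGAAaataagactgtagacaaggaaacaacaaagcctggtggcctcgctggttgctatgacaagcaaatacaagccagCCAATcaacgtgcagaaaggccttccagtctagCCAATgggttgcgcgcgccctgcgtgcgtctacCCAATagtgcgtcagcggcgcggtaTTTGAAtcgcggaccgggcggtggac
Birc5: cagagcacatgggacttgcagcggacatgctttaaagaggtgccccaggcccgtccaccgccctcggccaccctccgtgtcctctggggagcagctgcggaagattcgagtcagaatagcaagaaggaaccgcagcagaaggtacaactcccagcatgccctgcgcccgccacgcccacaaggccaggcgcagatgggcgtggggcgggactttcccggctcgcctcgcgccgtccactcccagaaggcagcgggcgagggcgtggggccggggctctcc
Racgap1: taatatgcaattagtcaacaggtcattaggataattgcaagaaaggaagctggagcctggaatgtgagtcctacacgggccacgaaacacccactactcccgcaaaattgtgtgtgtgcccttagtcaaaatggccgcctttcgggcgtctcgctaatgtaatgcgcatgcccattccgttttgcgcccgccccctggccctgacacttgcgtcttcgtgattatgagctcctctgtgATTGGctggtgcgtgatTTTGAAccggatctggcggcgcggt
Hmgb2: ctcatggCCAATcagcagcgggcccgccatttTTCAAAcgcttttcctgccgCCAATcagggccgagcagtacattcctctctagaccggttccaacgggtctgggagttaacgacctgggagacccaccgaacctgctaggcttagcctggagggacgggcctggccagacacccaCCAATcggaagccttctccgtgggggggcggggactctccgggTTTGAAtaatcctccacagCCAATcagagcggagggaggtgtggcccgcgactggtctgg
Pcna: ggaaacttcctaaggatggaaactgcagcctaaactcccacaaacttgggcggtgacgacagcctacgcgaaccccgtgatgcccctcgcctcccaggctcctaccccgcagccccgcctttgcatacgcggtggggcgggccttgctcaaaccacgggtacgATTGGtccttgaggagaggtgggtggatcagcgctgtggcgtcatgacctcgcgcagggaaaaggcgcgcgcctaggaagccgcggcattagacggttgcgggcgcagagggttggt
Cdc25a: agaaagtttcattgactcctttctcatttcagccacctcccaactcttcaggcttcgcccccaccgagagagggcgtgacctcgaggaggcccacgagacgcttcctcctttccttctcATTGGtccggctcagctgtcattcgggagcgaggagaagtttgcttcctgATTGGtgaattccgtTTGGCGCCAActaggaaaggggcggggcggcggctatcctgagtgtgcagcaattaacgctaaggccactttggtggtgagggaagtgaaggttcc
The window of Ccnb2 held 2 CHR and 3 CCAAT matches, that of Hmgb2 2 and 4, and that of Racgap1 1 and 1. The Birc5 window held none of the motif letters. Cdc25a held 2 CCAAT matches and 2 overlapping E2F matches, which are both strands of 1 place.

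The treatment comparison asks whether PPCA moved the cell cycle genes of the pancreatic T cells. No member passed the main test. The lowest log2 fold changes were those of Birc5, Ccnb2 and Ube2c, genes of mitosis. In T cells edgeR's quasi-likelihood test, with day as a block, called 0 of 41 members tested at an adjusted p under 0.05, and 0% of all genes tested (0 of 13241). Unadjusted, 1042 of these genes and 7 members had p under 0.05. DESeq2 called 71 genes (0.536%), 1 of them a member, Birc5 (log2 fold change -2.05, adjusted p = 0.0426), and limma-voom called 0. Aurkb, Bub1, Bub1b and Cdc25c had too few UMIs to be tested.

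Among the G2/M genes Birc5 had 1.70, 2.51 and 1.23 CPM under vehicle on days 2, 3 and 4 and 1.06, 0.25 and 0.292 CPM under PPCA. The groups did not overlap, and the summed counts cannot tell fewer dividing cells from less RNA per dividing cell. Its log2 fold change of PPCA over vehicle was -1.98 (SE 0.50, edgeR adjusted p = 0.503), with PPCA lower on 3 of 3 days. Without the day 3 pair the value was -1.36, and with the Y-linked status as a factor -2.03; over the alternatives run its adjusted p went from 0.00843 (edgeR, no low-count filter) to 1.00 (no block). Ube2c, a ubiquitin-conjugating enzyme of mitotic exit, also did not overlap, at 1.52, 1.59 and 0.956 CPM against 0.708, 0.306 and 0.710 CPM (log2 fold change -1.31, SE 0.42, edgeR adjusted p = 0.583). Ccnb2 stood at 1.52, 1.24 and 0.556 CPM under vehicle and 0.844, 0.111 and 0.271 CPM under PPCA, lower on each day but overlapping (log2 fold change -1.63, SE 0.52, edgeR adjusted p = 0.583).

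The proliferation marker Mki67 (ENSMUSG00000031004) showed how far 1 day set such values. It had 4.77, 3.94 and 2.29 CPM under vehicle and 4.63, 1.03 and 2.15 CPM under PPCA, so that the pairs of days 2 and 4 were close and day 3 was apart. On that day its UMIs were 220 under vehicle and 37 under PPCA. Aurka, a spindle kinase, was the highest G2/M member, at 0.35 (log2 scale, SE 0.26, edgeR adjusted p = 0.754). Over the 21 G2/M genes tested the median log2 fold change was -0.35, with 18 below 0, against -0.00078 over all genes tested.

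Of the S phase genes, Pclaf had 2.47, 2.42 and 1.51 CPM under vehicle and 1.69, 1.64 and 0.605 CPM under PPCA (log2 fold change -0.87, SE 0.26, edgeR adjusted p = 0.555). Mcm5, of the replicative helicase, did not overlap, at a mean of 12.3 CPM ± 1.07 (SD, n = 3) under PPCA and 14.8 CPM ± 0.996 under vehicle. The median over the 14 S phase genes was -0.11, and 10 were below 0. Counted over members tested in T cells, every PPCA library was below every vehicle library for 3 of 41 (Mcm5, Birc5 and Ube2c), where 0.968% of all genes tested were; here and below, this background leaves out genes that passed the low-count filter through the libraries of 1 group alone. PPCA was lower on 3 of 3 days for 12 of the 41, against 6.73% of all genes. No member had every PPCA library above every vehicle library, where 3.06% of all genes had.

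No gene of the switch passed the test. Wee1 (ENSMUSG00000031016), which encodes the drug's target, had 2.44, 2.15 and 2.80 CPM under vehicle and 2.99, 2.08 and 3.05 CPM under PPCA, with overlapping groups. Its log2 fold change was 0.043 (SE 0.20, edgeR adjusted p = 0.965). Pkmyt1, the related kinase, had 0.23 (SE 0.14), and was higher under PPCA on 3 of 3 days. Cdc25b had -0.30 (SE 0.11) and was lower on 3 of 3 days, at 12.7 CPM ± 2.15 (SD, n = 3) against 14.7 CPM ± 1.87. Cdk1 had 0.16 (SE 0.32), Plk1 -0.095 (SE 0.38) and Cdc25a -0.17 (SE 0.13), and the smallest edgeR adjusted p among the 6 switch genes tested was 0.585. Cdc25c had 0 to 4 UMIs per library. Overlap with a gene on the opposite strand makes the counts of Wee1, Pkmyt1, Cdc25b, Cdc25c, Cdk2, Pclaf, Mcm7, Tk1, Ccne2, Ccna2, Nusap1, Ube2c and Cdc20 less certain, since the use of strand in counting is not given in the sources used here.

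**Figure D2:**
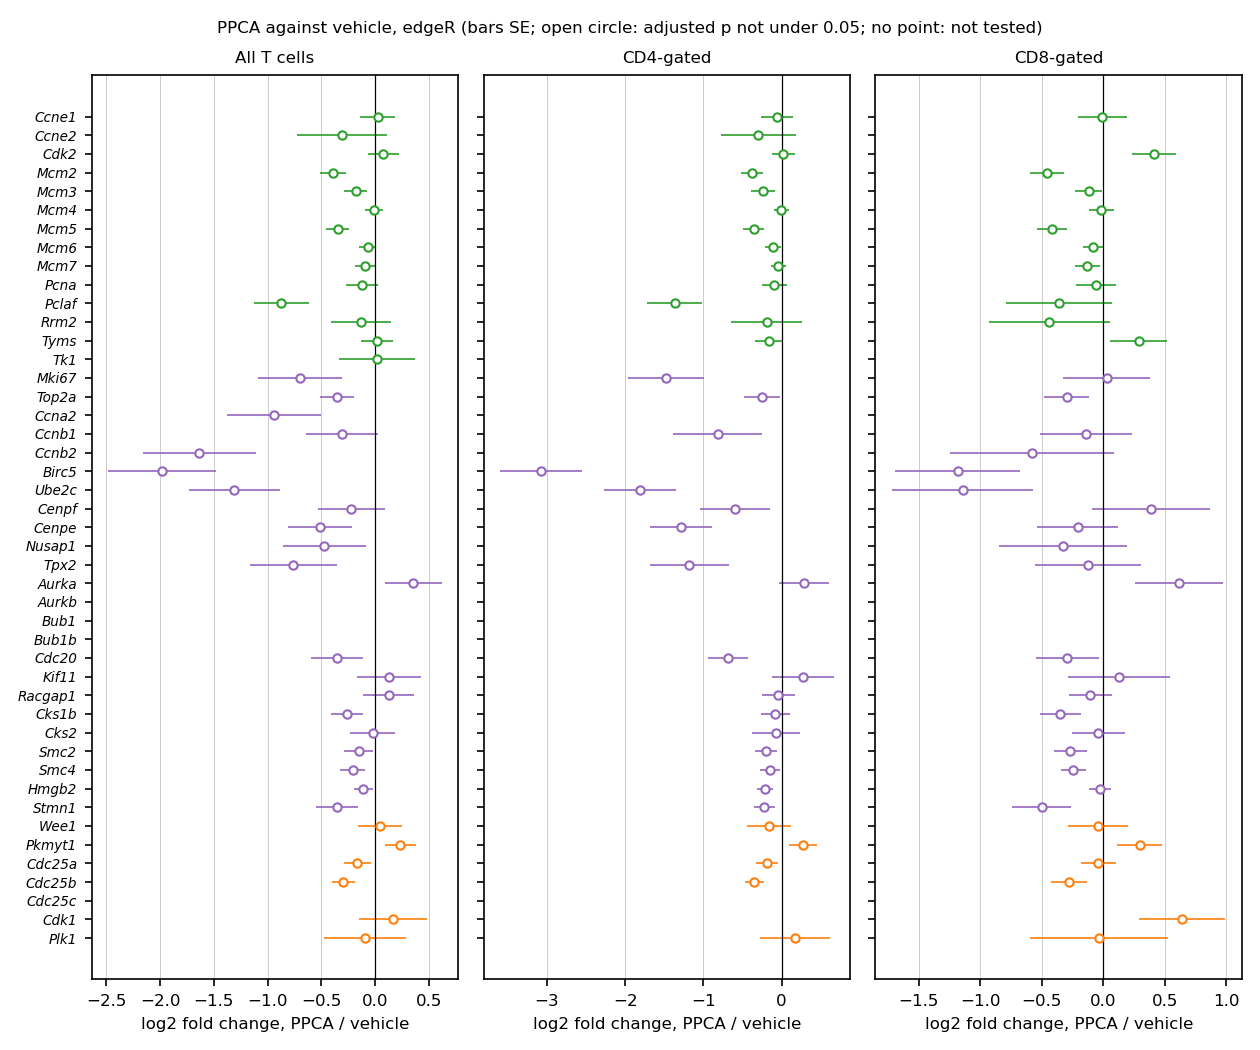
Log2 fold change of PPCA over vehicle (x axis) for each member tested, in 3 panels for all T cells, the CD4 gate and the CD8 gate, with bars of 1 SE and colours by role (green S phase, purple G2/M, orange switch). All circles are open, as no adjusted p was under 0.05. Birc5 is the lowest in each panel, at -1.98, -3.07 and -1.18.

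Within CD4-gated cells Birc5 and Ube2c, with Tpx2, passed the low-count filter through the vehicle libraries alone, so that a gap was built into their being tested. The test called 0 of 36 members, and 0% of all genes tested (0 of 11602), with 795 genes and 10 members at an unadjusted p under 0.05. Here DESeq2 called 35 genes (0.302%), 1 of them a member (Birc5, one of those 3 genes, log2 fold change -3.07, adjusted p = 0.0137), and limma-voom called 0. Birc5 had 26, 99 and 36 UMIs under vehicle on days 2, 3 and 4, or 1.65, 5.08 and 1.46 CPM. Under PPCA it had 2, 4 and 6 UMIs, or 0.143, 0.323 and 0.480 CPM (log2 fold change -3.07, SE 0.52, edgeR adjusted p = 0.420). Ccnb2 had 35, 51 and 12 UMIs under vehicle against 1, 1 and 4 under PPCA, and the low-count filter kept it out of the test. Mki67 stood at 5.21, 7.13 and 2.32 CPM against 1.78, 1.05 and 2.32 CPM (log2 fold change -1.48, SE 0.49, edgeR adjusted p = 0.715). Its day 4 pair was level, and without the day 3 pair its log2 fold change was -0.82 and that of Birc5 -2.38.

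Of the 33 members tested other than those 3, every PPCA library was below every vehicle library for 2 (Mcm5 and Cenpe), against 1.23% of all genes, and none the other way round, against 3.45%. PPCA was lower on 3 of 3 days for 7 of the 33, against 6.5% of all genes. Without the filter all 45 members were tested, and 0.688% of all genes were called. The 5 members called were lower: Birc5 (log2 fold change -3.08, edgeR adjusted p = 1.38e-05), Ccnb2 (-3.38, adjusted p = 0.00079), Mki67, Pclaf and Ube2c. With the Y-linked status as a factor, which leaves 1 residual degree of freedom, 1.38% of all genes were called, among them Mki67 and, tested only through the vehicle libraries, Birc5 (-3.28, edgeR adjusted p = 0.000985) and Ube2c. Without the day 4 pair Birc5 and Ccnb2 were called, with 0.377% of all genes. In that fit both passed the low-count filter through the vehicle libraries alone, so a gap was built in. With cells of more than 1 UMI of 6 B and myeloid genes left out, the low-count filter kept Birc5 out of the CD4-gated test. In T cells the Y-linked factor gave 0 calls of members (0.415% of all genes), and the fit without the filter gave 1, Birc5 (0.566% of all genes).

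In CD8-gated cells no member passed either. The test called 0 of 38 members, and 0% of all genes tested (0 of 11635), with 922 genes and 5 members at an unadjusted p under 0.05; DESeq2 called 40 genes (0.344%) and limma-voom 2 (0.0172%), none of them members. Birc5 had 2.63, 1.55 and 0.713 CPM under vehicle and 2.47, 0.262 and 0.247 CPM under PPCA, overlapping on account of day 2 (log2 fold change -1.18, SE 0.51, edgeR adjusted p = 0.627). Of the 8 libraries, the PPCA library of day 2 had the highest Mki67, at 10.0 CPM against 6.04 CPM under vehicle, and 1.18 and 2.22 CPM against 2.30 and 1.88 CPM on days 3 and 4. The highest members were Cdk1, at 0.64 (log2 scale, SE 0.35, edgeR adjusted p = 0.710), Aurka with 0.61 and Cdk2 with 0.42. Every PPCA library was below every vehicle library for 2 of the 38 (Mcm5 and Cks1b), against 1.03% of all genes, and none the other way round, against 3.03%. PPCA was lower on 3 of 3 days for 6 of the 38, against 5.79%.

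The difference between the gates was tested as an interaction. It called 0 of 40 members, against 0.00821% of all genes tested (1 of 12177), with 440 genes and 4 members at an unadjusted p under 0.05. Ccnb2 had the largest value, a log2 difference of 3.30 (SE 0.97, unadjusted p = 0.00499, edgeR adjusted p = 1.00), with Birc5 at 2.22 (SE 0.99) and Mki67 at 1.75 (SE 0.62). Without the low-count filter these 3 genes were called in this fit, with 0.268% of all genes, with edgeR adjusted p of 0.00198 for Ccnb2, 0.0109 for Birc5 and 9.99e-07 for Mki67. Of 59 other cell cycle genes found in the files, treatment calls were 0 of 48 tested in T cells, 0 of 38 in the CD4 gate and 0 of 41 in the CD8 gate, and the medians were -0.12, -0.16 and -0.082.

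**Figure D3:**
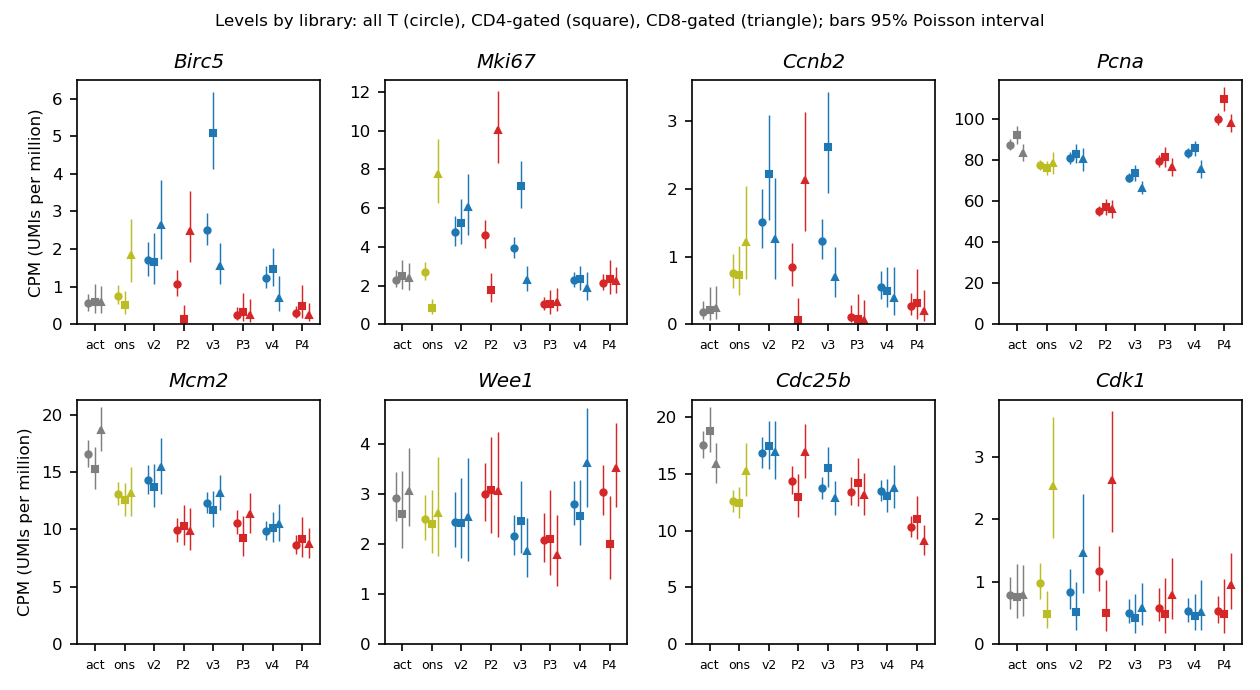
CPM (y axis) of 8 members in each library (act, active; ons, onset; v, vehicle and P, PPCA with the day), in all T cells (circles), CD4-gated (squares) and CD8-gated cells (triangles), with exact 95% Poisson intervals that cover counting error only. Birc5 in CD4-gated cells is at 5.08 CPM under vehicle and 0.323 CPM under PPCA on day 3, while Wee1 overlaps between the groups.

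Cells of the G2/M class were also counted one by one. G2/M cells numbered 19, 23 and 24 under vehicle on days 2, 3 and 4, and 18, 1 and 8 under PPCA. Among CD4-gated cells they were 6 of 2987, 13 of 3527 and 12 of 4576 under vehicle, and 0 of 3168, 0 of 2618 and 1 of 3051 under PPCA. A count of 0, taken to allow up to 3 cells, leaves room for a share of up to 0.0947% and 0.115% in the PPCA libraries of days 2 and 3. The vehicle mean was 0.277% ± 0.0849 (SD, n = 3) and the PPCA mean 0.0109% ± 0.0189, lower on 3 of 3 days (exact two-sided sign-flip test p = 0.25, the smallest that 3 days allow). Among CD8-gated cells they were 11, 7 and 8 with vehicle against 13, 1 and 5 with PPCA, at means of 0.390% ± 0.247 and 0.226% ± 0.266 (SD, n = 3, exact sign-flip p = 0.25). Of the 6 vehicle and PPCA libraries, the PPCA library of day 3 had the fewest G2/M cells in all T cells.

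These counts rest on detection, and deeper cells detect more genes. After thinning each cell to 2000 UMIs, G2/M cells were 6, 8 and 6 with vehicle against 6, 0 and 3 with PPCA, with 110, 83 and 116 T cells too shallow under vehicle and 269, 135 and 421 under PPCA. In CD4-gated cells the thinned totals were 11 of 11010 under vehicle and 1 of 8636 under PPCA, and the days did not all differ in 1 direction (exact sign-flip p = 0.50). In CD8-gated cells they were 7 of 7744 with vehicle against 7 of 9544 with PPCA, a mean difference of -0.0129 percentage points with PPCA higher on day 2 (exact sign-flip p = 1.00). Of the 138 G2/M cells, 70 had more than 1 UMI of 6 B and myeloid genes, against 11135 of all 70623 T cells. Without those 70, CD4-gated G2/M cells were 3, 5 and 2 with vehicle against 0, 0 and 0 with PPCA, and CD8-gated ones 5, 2 and 5 against 9, 0 and 4, higher with PPCA on day 2. Without Racgap1 in the count 89 of the 138 remained, of which the CD4-gated were 6, 11 and 7 with vehicle against 0, 0 and 1 with PPCA, and the CD8-gated 7, 4 and 5 against 9, 1 and 3. A further 11 of the 138 held both Cd4 and CD8 transcripts, and 24 of 6736 T cells removed as doublets met the definition. The share of doublets among the kept G2/M cells was not tested.

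**Figure D4:**
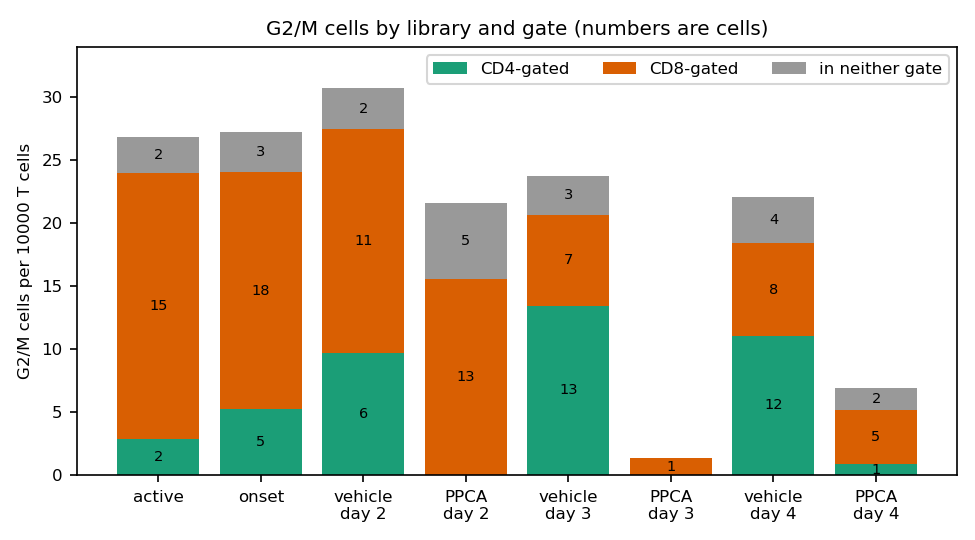
G2/M cells per 10000 T cells (y axis) in each library, stacked by gate, with the number of cells in each part. CD4-gated G2/M cells number 6, 13 and 12 with vehicle against 0, 0 and 1 with PPCA on days 2, 3 and 4.

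A wider definition took members of S phase and G2/M together, and is not a call of cycle phase, since Pcna alone was seen in 31.1% of cells outside the G2/M class. Cells with at least 3 of 33 core members of either phase, after thinning, made up 1.70%, 1.18% and 1.27% of T cells with vehicle, against 1.09%, 1.19% and 1.65% with PPCA. The means of 1.38% ± 0.277 and 1.31% ± 0.300 (SD, n = 3) differed by -0.0705 percentage points (exact two-sided sign-flip test p = 1.00). Before thinning the difference was -4.50 points, with shallower cells under PPCA. Of these cells 214 of 352 under vehicle and 206 of 358 under PPCA had at least 3 of the 13 core S phase members, while 20 and 9 had at least 3 of the core G2/M members.

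CD8-gated and CD4-gated cells of the same library were compared next, over all 8 libraries with library as a block. Racgap1 (ENSMUSG00000023015), the cytokinesis regulator, was the widest difference: 33.1 to 48.7 CPM in CD8-gated cells against 3.40 to 5.36 CPM in CD4-gated cells. The ranges did not overlap, CD8-gated cells were higher in 8 of 8 libraries, and the log2 fold change was 3.29 (SE 0.060, edgeR adjusted p = 4.53e-15). Stmn1, which encodes the microtubule regulator stathmin, went the other way. It had 5.83 to 16.2 CPM in CD8-gated and 20.8 to 30.7 CPM in CD4-gated cells (log2 fold change -1.20, SE 0.11, edgeR adjusted p = 3.48e-07). With G2/M cells left out the test called 15 members and 46.2% of all genes, and Racgap1 had 1.41% of its UMIs in such cells.

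In all the test called 14 of 36 members, 11 higher and 3 lower in CD8-gated cells, where 46.4% of all genes tested were called, 23.4% higher and 23% lower. The share of members called was therefore below that of all genes. The higher members of S phase were Ccne1, the cyclin that starts S phase with CDK2 (log2 fold change 0.86, SE 0.096), and 5 of the 6 Mcm helicase genes, from 0.17 for Mcm2 to 0.47 for Mcm6. Those of G2/M were Racgap1, Cks2 (0.62), the APC/C activator Cdc20 (0.57), Top2a (0.36) and Smc2 (0.22). Cdk2 itself was lower, with medians of 6.1 CPM in CD8-gated and 11.9 CPM in CD4-gated cells (log2 fold change -0.84, SE 0.077, lower in 8 of 8 libraries), as was Cdc25a (-0.29, SE 0.054, lower in 8 of 8 libraries). Ccne1 and its partner kinase gene Cdk2 thus differed in opposite directions. Birc5, Mki67 and Ube2c, with 73.4%, 34.7% and 34.5% of their UMIs in G2/M cells, did not pass. Their log2 fold changes were 0.078, 0.49 and -0.031 (SE 0.43, 0.40 and 0.29).

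Of the wider list 14 of 40 were higher in CD8-gated cells and 1 lower. By lowest p these began with Rpa2, Hells, Cdt1, E2f2 (lower, -0.76), Rfc4 and Slbp. With no replicate block 6 members were called, 3 higher and 3 lower, with 17.4% of all genes. The 4 libraries without Y-linked transcripts called 17 members and 32.7% of all genes, and the 4 with them 12 members and 33.6%. The share of cells with at least 3 of the 33 core members was higher in CD8-gated cells in 8 of 8 libraries, at 2.10% ± 0.615 against 1.15% ± 0.248 (SD, n = 8, exact two-sided sign-flip p = 0.00781). Requiring at least 4 of them, the gap shrank to 0.186 percentage points, short of the threshold (exact p = 0.125). Racgap1 is one of the 33, and without it the difference of 0.951 percentage points became 0.514, higher in 6 of 8 libraries (exact p = 0.0469). Before thinning it was 8.93 points. CD8-gated cells were also deeper, with median UMIs of 4277 to 7260 against 3851 to 6156 before thinning.

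Foxp3 marks regulatory T cells, and CD4-gated cells with a Foxp3 UMI (1130 cells) were compared with those without. The test called 10 of 26 members, all 10 higher in Foxp3+ cells, where 30.3% of all genes tested were called, 14.9% higher and 15.5% lower. Smc4 (ENSMUSG00000034349) had 591 to 861 CPM in Foxp3+ and 183 to 280 CPM in Foxp3- cells, with no overlap and higher values in 8 of 8 libraries (log2 fold change 1.34, SE 0.060, edgeR adjusted p = 1.53e-19). Few of its UMIs were in G2/M cells, as given above. Mcm6 did not overlap either, at 41.0 to 80.2 CPM against 26.1 to 33.6 CPM (log2 fold change 0.70, SE 0.11). Hmgb2, a chromatin protein, had medians of 369 and 201 CPM (log2 fold change 0.61, SE 0.077, higher in 8 of 8 libraries).

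Mki67 and Birc5 rested on few UMIs in Foxp3+ cells. Mki67 had 29.8, 52.1 and 17.7 CPM in Foxp3+ cells under vehicle, on 23, 54 and 10 UMIs, and 5.26, 0 and 2.12 CPM under PPCA, on 5, 0 and 1 UMIs. It was higher than in Foxp3- cells in 6 of 8 libraries (log2 fold change 2.50, SE 0.33, edgeR adjusted p = 8.71e-08). Also called higher were Pclaf (2.00, SE 0.43), Cenpf (1.81, SE 0.45), Cks2 (1.17), Top2a (1.03) and Tyms (0.71). In that order, 38.9%, 23.7%, 4.95%, 9.79% and 5.44% of their UMIs in T cells were in G2/M cells. Birc5, which was too sparse for this test, had 7, 26 and 20 UMIs in Foxp3+ cells under vehicle and 0, 0 and 0 under PPCA. Among all T cells with a Foxp3 UMI, in either gate or none, G2/M cells were 2, 6 and 3 with vehicle (of 273, 427 and 241 cells). With PPCA they were 1, 0 and 0 (of 475, 304 and 317 cells). After thinning to 2000 UMIs they were 1, 2 and 1 with vehicle against 1, 0 and 0 with PPCA.

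Wee1 was the member of the switch that passed. It had 36 UMIs in Foxp3+ cells, from 2.12 to 10.7 CPM, against 1.69 to 3.06 CPM in Foxp3- cells, and was higher in 8 of 8 libraries (log2 fold change 1.21, SE 0.32, edgeR adjusted p = 0.00342). In the 4 libraries without Y-linked transcripts it was 0.88 and did not pass, and 6 members and 18.1% of all genes were called there. In the 4 with them 9 members and 20.8% of all genes were called. Of the wider list 8 of 29 were higher in Foxp3+ cells, including Cdca8 (1.54), Lig1, E2f2 and Dtl, and Kif23 was lower (-0.90). Foxp3+ cells had median UMIs of 3517 to 5143 and Foxp3- cells 3854 to 6175.

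**Figure D5:**
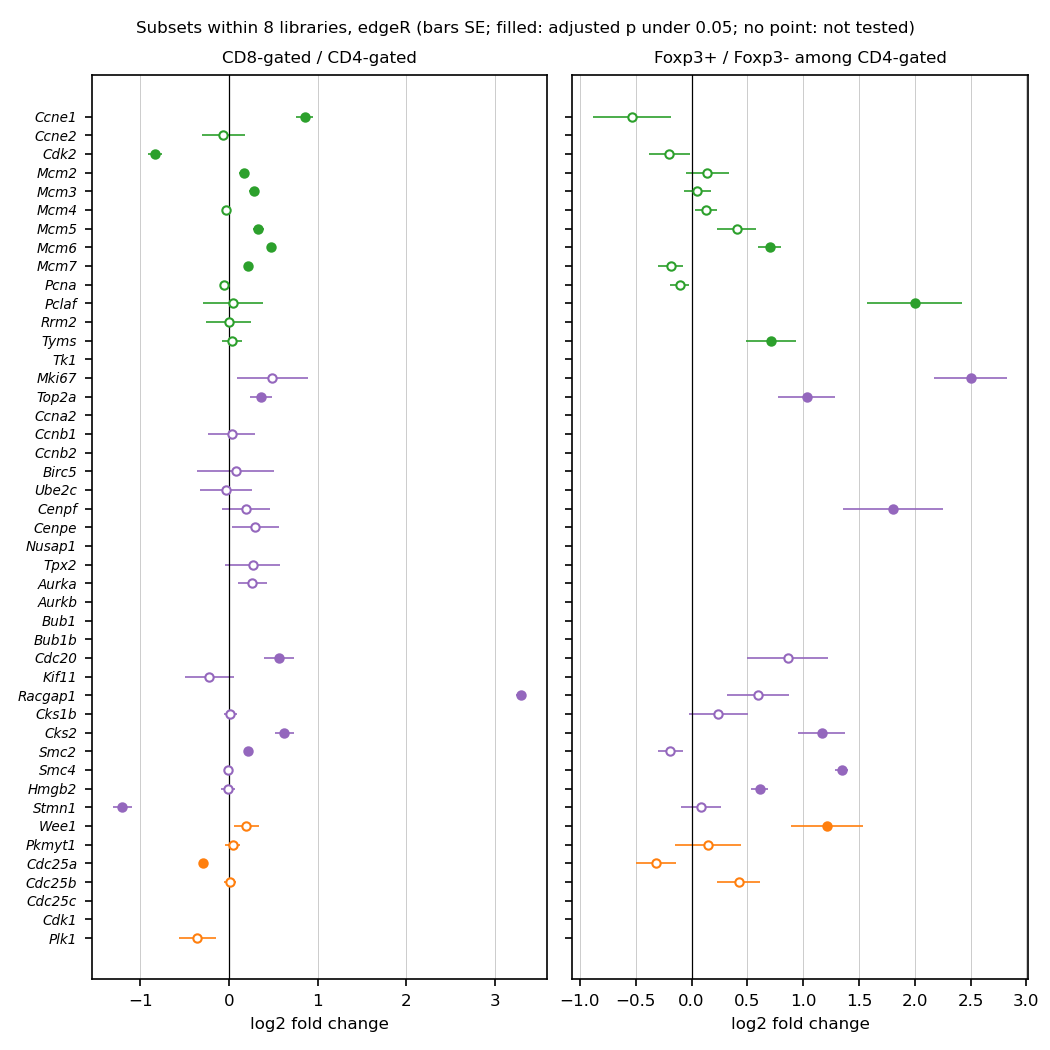
Log2 fold change (x axis) of each member tested, CD8-gated over CD4-gated cells (left) and Foxp3+ over Foxp3- CD4-gated cells (right), with bars of 1 SE, filled where the adjusted p was under 0.05 and coloured by role (green S phase, purple G2/M, orange switch). Racgap1 stands at 3.29 on the left, and Mki67 at 2.50 and Smc4 at 1.34 on the right.

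The active and onset libraries, 1 each, allow no test. They also differed in erythroid markers, at 70.7 CPM in active and 0.421 CPM in onset diabetes. CD8-gated cells had median UMIs of 7260 in active and 5565 in onset diabetes. The part of these differences in the ratios was not tested. Ratios of CPM are given with exact 95% intervals for counting error only. To count genes at least 2-fold apart, UMI sums under 3 were first raised to 3, for members and all genes alike. In T cells 2 G2/M members were at least 2-fold apart, as were 7.2% of all genes with a UMI in either library: Ccnb2, with 9 UMIs in active and 38 in onset diabetes, and Kif11, a spindle motor, with 24 and 51. In CD8-gated cells 8 of 24 G2/M genes were at least 2-fold lower in active diabetes, against 6.85% of all genes in either direction. Mki67 had 2.39 CPM in active and 7.77 CPM in onset CD8-gated cells, a log2 ratio of -1.70 (interval of the ratio 0.212 to 0.440). Cdk1 had 0.779 and 2.53 CPM. In CD4-gated cells Mki67 went the other way, at 2.50 CPM in active and 0.850 CPM in onset diabetes, and 3 of 24 G2/M genes were at least 2-fold apart, against 6.49% of all genes. G2/M cells were 2 of 2858 and 5 of 4720 CD4-gated cells in the active and onset libraries. Among CD8-gated cells they were 15 of 2702 and 18 of 2010, or 0.555% and 0.896%, with 6 and 10 left without Racgap1 in the count and 0 and 6 after thinning. No S phase member was 2-fold apart in T or CD8-gated cells, and 1, Tk1, was in CD4-gated cells on 10 and 5 UMIs.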

How the data were processed

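The deposited matrices hold raw UMI counts for each gene in each barcode, per the file headers, which name Cell Ranger 6.0.0; the submitters' processing notes name Cell Ranger 6.1.2 and Seurat. For genome build, annotation and strand the sources used here give nothing. The authors' deposited marker table gives p-values, log2 fold changes and the fraction of each cluster's cells in which a gene was seen, for 7 clusters.

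Kept cells had 500 or more genes, with mitochondrial UMIs below 10%. Scrublet (scanpy 1.11.5) scored doublets within each library, and the highest 0.8% per 1000 barcodes were taken out. UMIs were summed per library and gate. edgeR 4.0.16 in R 4.3.3 (TMM, filterByExpr) fitted PPCA against vehicle with day as a block, 2 residual degrees of freedom and 6 libraries, and subsets with library as a block over 8 libraries. Adjustment was by Benjamini and Hochberg over all genes tested, at 0.05. The treatment pairs share a day in the labels, and their deviations from the group means correlated across genes at 0.366, 0.385 and 0.530 in T cells. On simulated data with 2-fold changes the treatment fits recovered 77.9% of 195 genes in T cells, 88.7% of 194 in the CD4 gate and 96.0% of 198 in the CD8 gate. False calls were 3, 7 and 7. The simulated counts had a common dispersion for all genes and no day effects. Changed genes were drawn from all genes past the filter. These shares therefore do not give the power for members with few UMIs in the real data.

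The members, gene lists and named genes (all 45 members, and up to 6 called genes of the wider list per comparison) were chosen with earlier results of these data known. One gene of the wider list that the rule names is not reported here. Birc5, Ccnb2 and Racgap1 were picked for their promoters after their values were seen. Alternatives were DESeq2 1.42.0 and its size factors, limma-voom (limma 3.58.1), no filter, no block, no doublet removal, a gate against B and myeloid genes, other thresholds of core members, and sets of libraries. The G2/M definition, the counts without Racgap1 or without G2/M cells, and the test of the difference between gates were added after the data were seen.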

Additional observations from a re-analysis of the deposited data

How the results depend on the processing

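Counts of members called for PPCA against vehicle moved from 0 in T cells to 1 with DESeq2 and 1 with no low-count filter. In CD4-gated cells they moved from 0 to 1 with DESeq2, 5 with no low-count filter and 3 with the Y-linked factor, and lay between 0 and 2 when 1 day was left out. The DESeq2 call (Birc5) and 2 of the 3 with the Y-linked factor (Birc5 and Ube2c) are genes that passed the filter through the vehicle libraries alone. So did the 2 called without the day 4 pair (Birc5 and Ccnb2). In CD8-gated cells every alternative run gave 0. The test of the difference between the gates gave 3 with no low-count filter. Between CD8-gated and CD4-gated cells, the fit with no replicate block called 6 members in place of 14. Between Foxp3+ and Foxp3- cells, 18 were called with no low-count filter and 6 in the libraries without Y-linked transcripts, in place of 10. For the 18, the share of all genes called in that fit is not given here, so they cannot be set against it. The cause of these shifts was not tested. With no replicate block 0 members were called in each treatment comparison, as with the block.

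The share of T cells with at least 3 core members differed between PPCA and vehicle by 0.196 percentage points without the day 2 pair, the reverse of its sign, and by -0.299 to 0.196 over the days left out. The difference between CD8-gated and CD4-gated cells fell short of the threshold at 0.186 points with at least 4 core members (exact p = 0.125), 0.0541 with the G2/M core (exact p = 0.359) and 0.0391 with that core less Racgap1 (exact p = 0.328). Signs also turned for Kif11 in CD4-gated cells (-0.014 without the day 4 pair, to 0.62 over the days left out) and Ccnb2 in CD8-gated cells (0.14 without the day 3 pair, and from -0.43). In the test between the gates they turned for Tk1 (0.45 without the day 4 pair, and from -2.48) and Stmn1 (0.018 without the day 4 pair, and from -0.47), none of them past the threshold. Depth limits the mitotic genes, whose sums were often under 10 UMIs per library and gate.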

Other observations

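The authors' deposited table of cluster markers lists 5 of the 45 members, in 9 entries. Smc4 is listed for the CD4 Treg cluster with a log2 fold change of 1.49, detected in 80.1% of its cells, and for CD4 Th0 with 0.48. Racgap1 is listed for CD8 TCM (0.36, in 18.2% of its cells) and CD8 TRM TEM (0.33). Hmgb2 is listed for CD8 TRM TEM (1.11), CD4 Th17 (0.88) and CD4 Treg (0.35), Cdc25b for CD4 Th17 (0.49) and Mcm6 for CD8 TRM TEM (0.36). None of the genes with most of their UMIs in G2/M cells, such as Birc5 and Ccnb2, is among the 5. The table holds 2100 entries over 7 clusters, and these 2 genes were seen in only 141 and 107 T cells. Their absence is therefore no result about them. These values come from the same libraries and are no independent check of the comparisons above.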
